A study of Mus musculus with 8 samples.

Results

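The baseline transcriptome of the control mice of an asrij knockout study was described from 4 RNA-seq libraries, 1 from each of 4 asrij floxed mice (replicates 1, 3, 4 and 5), out of 8 libraries in the series. The libraries were taken by their label, with earlier results of these data known. The 4 knockout (KO) libraries entered only the scaling of library sizes and the choice of the transcript that stands for each gene. The floxed mice were 6 months old. Their asrij gene, Ociad1, is flanked by recombination sites but is not deleted, so that they served the study as controls. Bone marrow cells were sorted and labelled long-term haematopoietic stem cells (LT-HSCs). The methods for these libraries give the sorted fraction as Lin- c-Kit+ Sca1+ (LSK) CD150+ CD48+, whereas other sections of the same methods give LT-HSCs as LSK CD150+ CD48-. Mice of both sexes were used in the study, and the labels do not give the sex of each mouse.

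LT-HSCs are a rare, mostly quiescent fraction of the bone marrow that can rebuild all blood lineages over a long time. Transcription factors such as Lmo2, Lyl1 and Mecom and surface proteins such as CD150, encoded by Slamf1, mark these cells. Neutrophil precursors make granule proteins in a fixed order, from primary through specific to late granules, and erythroid precursors fill with haemoglobin. These programmes are largely silent in a purified stem cell, and the sort removes cells that carry mature lineage antigens.

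Each gene was counted by 1 of its transcripts, the one on which the files hold the most reads. Gene counts summed to 34672846 in replicate 1, 44874882 in replicate 3, 23412829 in replicate 4 and 25969123 in replicate 5. At least 1 count in at least 1 floxed library was found for 37266 genes, and 16429 of these (44.1%) reached 1 CPM in all 4 libraries, where CPM is the count scaled to the TMM-adjusted size of the library. Replicate 3 stood apart. It held counts for 34367 genes against 28305 to 29096 in the others, and for 32946 genes against 28134 to 28817 when every library was drawn down to 23412829 counts. Of the 16429 genes, replicate 3 lay above the other 3 libraries in 35.4% and below them in 37.3%. Across the 37266 genes, Spearman's rho between pairs of libraries ranged from 0.927 to 0.952, with no test, since all points share the libraries and genes are not independent replicates. The spread between mice, as edgeR's common biological coefficient of variation, was 0.403 over 4 libraries and 0.306 without replicate 3. Each level below is therefore given with replicate 3 and, where it matters, without it. Series of 4 values below follow the order of replicates 1, 3, 4 and 5. Nothing was tested between groups, since the libraries form 1 group.

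Averaged over all 4 libraries, the highest ranks went to 2 pairs of near-identical globin genes. By CPM and per kb of transcript, the lead of single globin genes rested on replicate 3. Levels of different genes were compared as CPM per kb of spliced transcript length. By this measure Hbb-bs ranked 1, Hba-a2 ranked 2, Hba-a1 ranked 3 and Hbb-bt ranked 7 among all genes. Without replicate 3, the neutrophil gene Ngp had the highest mean CPM, at 15889, followed by Hba-a1 at 13227, S100a9 at 12241 and Hbb-bs at 12237. The S100a9 transcript is shorter than that of Hbb-bs (519 against 628 bases), so S100a9 then lay above Hbb-bs per kb. The counts cover whole genomic spans, and per kb of span the order turned, with Hba-a1 at rank 1, Hba-a2 at 2, Hbb-bs at 3 and Hbb-bt at 5. The coding sequences of Hba-a1 (GRCm38 chr11:32283511-32284465, plus strand) and Hba-a2 (chr11:32296489-32297298, plus strand) are 426 bases long without the stop codon and differ only by C381T, counted from the A of the start codon with the base of Hba-a1 first. Those of Hbb-bs (chr7:103826534-103827928, minus strand) and Hbb-bt (chr7:103812524-103813996, minus strand) are 441 bases long and differ only by C417T, with the base of Hbb-bs first. The last 120 coding bases of each transcript are shown, from GENCODE M21, because they hold the 1 base by which each pair can be separated there, in capitals:
Hba-a1: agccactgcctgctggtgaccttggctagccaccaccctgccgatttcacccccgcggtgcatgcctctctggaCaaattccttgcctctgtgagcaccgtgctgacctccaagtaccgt
Hba-a2: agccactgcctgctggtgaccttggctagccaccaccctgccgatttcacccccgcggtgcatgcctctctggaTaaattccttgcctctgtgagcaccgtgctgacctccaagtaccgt
Hbb-bs: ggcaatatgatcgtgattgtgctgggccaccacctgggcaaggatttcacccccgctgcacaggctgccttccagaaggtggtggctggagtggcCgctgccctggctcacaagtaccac
Hbb-bt: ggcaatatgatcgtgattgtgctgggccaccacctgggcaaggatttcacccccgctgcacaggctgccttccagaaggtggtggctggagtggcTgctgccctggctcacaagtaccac
Of the 50-base stretches of the whole transcripts, 67.5% in Hba-a1, 86.9% in Hba-a2, 65.8% in Hbb-bs and 58.3% in Hbb-bt also occur in another gene. The split of reads within each pair is uncertain for that reason, and the sum of a pair is the safer value. Without replicate 3, Hba-a2 had a mean of 10660 CPM and Hbb-bt of 5782 CPM. As sums, the alpha pair and the beta pair then each still lay above Ngp.

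The label was first checked against the antigens by which stem and progenitor cells are gated and the lineage antigens that the sort is meant to remove. Transcripts of several myeloid lineage antigens were more abundant than those of the gating antigens. Kit, the receptor for stem cell factor, stood at 58.3 CPM in replicate 1, 60.2 in replicate 3, 51.6 in replicate 4 and 53.8 in replicate 5, the narrowest relative range of the 6 sort antigens. Ly6a, which encodes Sca1, stood at 13.1, 4.29, 15.2 and 12.95 CPM in the same order. Slamf1, which encodes CD150, stood at 1.05, 2.19, 1.19 and 0.881 CPM and fell below 1 CPM in replicate 5. Cd48, by contrast, was at 55.2, 42.6, 46.2 and 49.5 CPM, above Slamf1 in every library. Per kb of transcript, Cd48 was 122 ± 48.5 times as abundant as Slamf1 (SD, n = 4; range 56.6 to 164), and Kit was 24.2 ± 7.67 times as abundant. Per kb of genomic span these ratios were 61.1 ± 24.3 and 19.5 ± 6.18. Cd48 RNA was thus found in all 4 libraries, while Slamf1 RNA was near the limit of 1 CPM.

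Itgam, which encodes the myeloid antigen CD11b, stood at 968 CPM in replicate 1, 480 in replicate 3, 658 in replicate 4 and 631 in replicate 5. It overlaps another gene model, Gm49368, with nearly the same count, so its own part is uncertain. Ly6c2 was at 671, 203, 921 and 817 CPM, and Ly6g, an antigen of neutrophils, at 197, 147, 247 and 223 CPM. These myeloid antigens lay above Kit in all 4 libraries, also per kb of transcript, where Itgam was 13.7 ± 3.95 times as abundant as Kit. Itgam, Ly6g and Ly6c2 were in the top 10% of genes by CPM per kb, as was Ptprc. Ptprc is carried by nearly all blood cells, and only a splice form of it is a B cell antigen. The T cell antigens were low: Cd3e averaged 5.46 ± 2.35 CPM, Cd4 8.72 ± 0.782, Cd8a 3.38 ± 0.926 and Cd5 2.004 ± 0.265 (SD, n = 4). The median percentile among all genes with a count was 78.7 ± 4.94 for the sort antigens and 92.0 ± 2.37 for the lineage antigens, and it was higher for the lineage antigens in 4 of 4 libraries. The data thus go against the label of a purified stem cell fraction, and the samples are called the floxed libraries below. In bulk RNA, fewer cells of a type and less RNA per cell cannot be told apart, so no share of cells follows from these values.

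**Figure D1:**
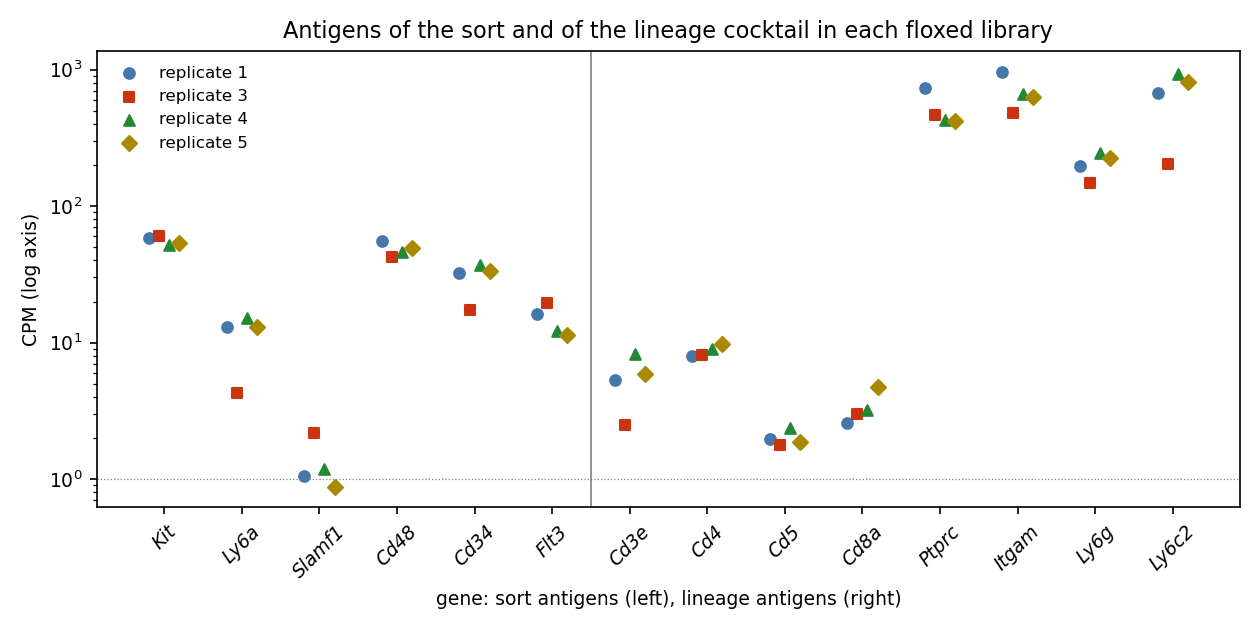
CPM on a log axis for the 6 gating antigens and 8 of the 10 lineage antigens, with 1 point for each floxed library and a dotted line at 1 CPM. Slamf1 lies at the line, and Itgam and Ly6c2 lie between 203 and 968 CPM.

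Genes of the stem programme had the lowest median percentile of the 5 programmes, and surface genes were lower than transcription factors. Of 41 stem genes, 28 reached 1 CPM in all 4 libraries, a larger share than the 44.1% of all genes with a count, and none was among the 100 genes highest per kb. Stem genes are all protein-coding, while the 37266 genes with a count include 6762 pseudogenes, so these shares cover unlike sets. The median stem gene lay at percentile 52.9 ± 1.78 of all 37266 genes, near the middle. It lay at percentile 39.6 among protein-coding genes only, and at 23.5 among the 21902 genes that passed a filter on low counts. All stem genes together took 0.127% ± 0.0192 of the gene counts.

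Among 20 stem transcription factors, 18 reached 1 CPM in all 4 libraries, and their median percentile was 73.2 ± 3.93. Lmo2, an adaptor of the blood transcription factor complex, was the highest per kb, at 180, 290, 189 and 200 CPM in replicates 1, 3, 4 and 5. A gene that overlaps Lmo2 holds 97.5% of its count, and one that overlaps Lyl1 has 123% of the count of Lyl1. Lyl1, a partner of Lmo2, was at 88.4, 75.9, 164 and 191 CPM, and Fli1, an ETS factor, at 128, 85.6, 121 and 95.8 CPM. These factors also act in committed erythroid and myeloid cells. Factors more restricted to stem cells were low. Mecom, which keeps stem cells quiescent, was at 1.61, 2.86, 2.30 and 0.498 CPM, so that it fell under 1 CPM in replicate 5. Prdm16 was at 3.85, 5.13, 3.27 and 4.56 CPM. Hoxb5, a reporter gene for long-term stem cells, was at 0.0527, 0.113, 0.170 and 0.0766 CPM, below 1 CPM in every library.

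Of 21 stem surface and stem-enriched genes, 10 reached 1 CPM in all 4 libraries, a share near the 44.1% of all genes, and 5 were below it in all 4. Their median percentile was 47.8 ± 1.30. The highest per kb was Pdzk1ip1, at 14.8, 35.1, 19.5 and 16.0 CPM, followed by Abcg2, the pump behind the side population assay, at 21.8, 63.3, 10.9 and 13.4 CPM. Abcg2, which erythroid cells also make, and Pdzk1ip1 were highest in replicate 3, the library with the highest erythroid RNA. Most B progenitor, cell cycle and stromal genes were also highest there, and the cause was not tested. Fgd5, whose locus is used to report stem cells, was at 0.158, 0.700, 0.298 and 0.537 CPM. Ndn had no count in replicate 1, which allows up to 0.0791 CPM there (3 counts), and was at 0.340, 0.170 and 0.383 CPM in replicates 3, 4 and 5. Robo4, a guidance receptor of stem cells and endothelium, averaged 0.692 ± 0.242 CPM. Tek, the angiopoietin receptor, crossed the limit, at 1.87, 2.40, 0.765 and 0.690 CPM, as did Esam, at 1.19, 1.32, 0.935 and 0.996 CPM. Replicate 3 was highest in 15 of the 21 genes, against 35.4% of all genes at 1 CPM or more. Only 10 of the 21 genes reached that level in all 4 libraries, so the 2 shares are of unlike sets. No such share was computed for genes below 1 CPM, and replicate 3 held counts for more genes than the other libraries.

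**Figure D2:**
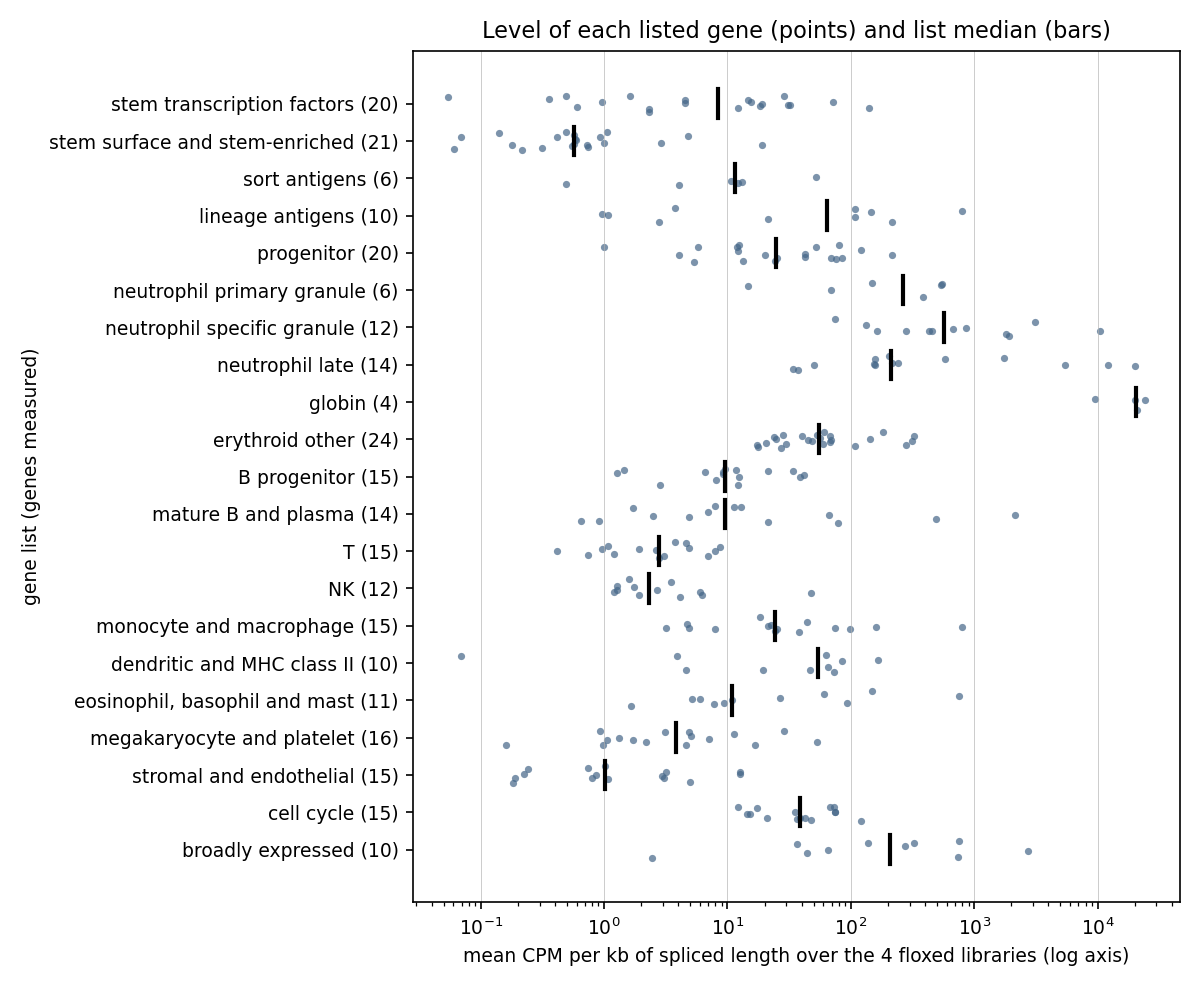
Mean CPM per kb of spliced length over the 4 floxed libraries on a log axis, with 1 point for each gene and a bar at the list median. Globin and neutrophil granule genes are at the right, and stem surface genes and stromal genes at the left, with list medians of 0.573 for stem surface genes and 566 for specific granule genes.

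All 20 progenitor genes reached 1 CPM in all 4 libraries, against 44.1% of all genes with a count. By CPM per kb, 9 were in the top 10%. Their median percentile was 88.4 ± 3.33. Spi1, which encodes the myeloid and lymphoid factor PU.1, was the highest per kb, at 308, 140, 612 and 698 CPM. Csf2rb, the common receptor chain for IL-3, IL-5 and GM-CSF, was at 267, 129, 289 and 325 CPM. Irf8, a factor of monocytes and dendritic cells, was at 230, 170, 267 and 294 CPM, and an overlapping gene model has 1592% of its count. Replicate 3 was the lowest of the libraries for all 3 genes. The list was lowest at Ikzf2, with 9.32 ± 3.09 CPM, and the receptor Flt3, which marks multipotent and lymphoid progenitors, had 14.8 ± 3.74 CPM. Cd34 averaged 30.1 ± 8.61 CPM. Overlapping gene models have 84.1% of the count of Cd34 and 83.1% of that of Ikzf2. The progenitor list took 0.280% ± 0.0447 of the gene counts, and replicate 3 was below the other libraries in 15 of its 20 genes, against 37.3% of all genes at 1 CPM or more.

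All 32 neutrophil genes reached 1 CPM in all 4 libraries, against 44.1% of all genes with a count. By CPM per kb, 31 were in the top 10% and 10 were among the 100 highest genes. Their median percentile was 99.3 ± 0.189. They took 7.33% of the gene counts in replicate 1, 2.98% in replicate 3, 7.66% in replicate 4 and 7.08% in replicate 5. Replicate 3 was far below the others, and the mean was 6.26% ± 2.20 with it and 7.35% without it. With genes that overlap another counted gene left out of the list and of the total, the mean was 11.98%.

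Genes of every granule stage were abundant. Mpo, the myeloperoxidase of primary granules, was at 1384, 716, 1841 and 2136 CPM, and an antisense gene within it holds 51.2% of its count. Elane, neutrophil elastase, was at 431, 207, 712 and 761 CPM, and Prtn3, proteinase 3, at 321, 173, 502 and 573 CPM. Per kb, Elane was 0.940 ± 0.122 times as abundant as Mpo, with a range of 0.810 to 1.08, and 1.85 ± 0.241 times as abundant per kb of genomic span. Ngp, neutrophilic granule protein, was the highest gene of the specific granules, at 13037 CPM in replicate 1, 3437 in replicate 3, 18427 in replicate 4 and 16203 in replicate 5. Lcn2, which binds bacterial siderophores, was at 3230, 936, 3856 and 3457 CPM. Camp, the cathelicidin, averaged 1460 ± 597 CPM and Ltf, lactoferrin, 4990 ± 1864 CPM. The highest genes of late and mature neutrophils were near these levels. S100a9 was at 12307, 4751, 13083 and 11333 CPM and its partner S100a8 at 8214, 3550, 6304 and 5382 CPM. The 2 proteins form calprotectin. Per kb, S100a9 was 1.64 ± 0.369 times as abundant as S100a8, and per kb of genomic span the direction turned, with a ratio of 0.601 ± 0.135, so that the order of the pair is uncertain. Lyz2, lysozyme, averaged 7165 ± 3242 CPM and Mmp9, a gelatinase, 1834 ± 762 CPM. The lowest neutrophil gene per kb was Prss57, at 41.7 ± 15.9 CPM, at percentile 82.3.

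The stages were close in rank, near the top of the scale, but not in level. The median CPM per kb was 266 for primary granule genes, 566 for specific granule genes and 211 for late genes. In the same order, the lists took 0.282% ± 0.101, 3.0006% ± 1.17 and 2.977% ± 0.962 of the gene counts. The lists differ in their number of genes, so these shares are not levels per gene. The median percentile was 98.8 ± 0.385 for 6 primary granule genes, 99.6 ± 0.247 for 12 specific granule genes and 98.8 ± 0.167 for 14 late genes. Specific granule genes ranked above primary granule genes in 4 of 4 libraries, by 0.742 ± 0.139 percentile points. Late genes ranked above primary granule genes in 1 of 4 libraries, with a difference of -0.0188 ± 0.309 points, smaller than its spread. With overlapping genes left out, late genes ranked above primary granule genes in 4 of 4 libraries, by 0.5002 ± 0.239 points, and per kb of genomic span below them in all 4, with a difference of -0.413 ± 0.0775 points. Per kb, Ngp was 21.2 times as abundant as Mpo in replicate 1, 10.8 times in replicate 3, 22.5 times in replicate 4 and 17.1 times in replicate 5.

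Erythroid genes were the other abundant programme. All 28 genes found reached 1 CPM in all 4 libraries, against 44.1% of all genes with a count. By CPM per kb, 20 were in the top 10%, and the median percentile was 94.5 ± 2.69. They took 3.28% of the gene counts in replicate 1, 8.99% in replicate 3, 5.40% in replicate 4 and 5.39% in replicate 5, with a mean of 5.76% ± 2.37, and of 4.69% without replicate 3. With overlapping genes left out the mean was 11.4%. The 4 globin genes alone took 5.13% ± 1.97. Hbb-bs was at 8908, 24093, 13956 and 13847 CPM, and Hba-a1 at 7132, 17061, 16452 and 16096 CPM. Replicate 1 was the lowest library for both. The alpha globin pair had 1.01 times the CPM of the beta globin pair in replicate 1, 0.938 times in replicate 3, 1.45 times in replicate 4 and 1.40 times in replicate 5, with replicates 4 and 5 above replicates 1 and 3.

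The other 24 erythroid genes took 0.632% ± 0.464 of the counts, and 0.401% ± 0.0272 without replicate 3, with a median percentile of 93.5 ± 2.99. Alas2, the first enzyme of haem synthesis in erythroid cells, was at 447, 1159, 499 and 535 CPM, and the overlapping gene Apex2 has 101% of its count. Slc4a1, the anion exchanger band 3 of the red cell membrane, was at 857, 2546, 769 and 875 CPM, and Car2, a carbonic anhydrase, at 397, 1127, 376 and 360 CPM. Replicate 3 was above the mean of the other 3 libraries in each of these genes, with ratios of 2.35, 3.05 and 2.99. Epor, the erythropoietin receptor, was low among the list, at 17.7, 72.3, 23.6 and 30.4 CPM, as was Uros, a haem enzyme, at 24.2, 82.2, 24.7 and 23.7 CPM. Replicate 3 was the highest library in 28 of 28 erythroid genes. The ratio of erythroid to neutrophil counts was 0.447 in replicate 1, 3.02 in replicate 3, 0.705 in replicate 4 and 0.761 in replicate 5, so that neutrophil RNA exceeded erythroid RNA in all but replicate 3.

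**Figure D3:**
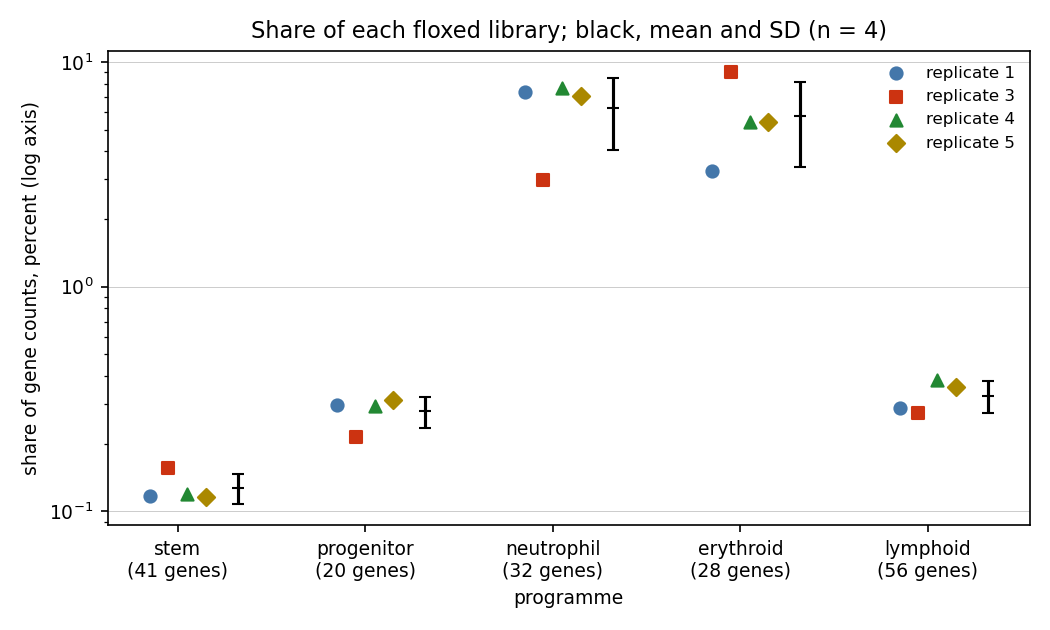
Share of the gene counts of each floxed library, in percent on a log axis, taken by the genes of each of 5 programmes, with the mean and SD over the 4 libraries in black. Neutrophil and erythroid genes took 2.98% to 8.99%, and each of the other programmes less than 1%.

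The 250 bases before the RefSeq start of 1 gene from each of the erythroid, neutrophil and stem programmes are shown (GRCm38.p6, on the strand of the gene), because these programmes differ in level. Capitals mark TATAA within the last 100 bases and GATAA, the core of GATA factor motifs, anywhere in the window, each searched on both strands. Hbb-bs is from chr7:103827929-103828178 (minus strand), S100a9 from chr3:90695722-90695971 (minus strand) and Hlf, a stem cell transcription factor at 9.18 ± 1.86 CPM that was picked after its values were seen, from chr11:90390918-90391167 (minus strand):
Hbb-bs: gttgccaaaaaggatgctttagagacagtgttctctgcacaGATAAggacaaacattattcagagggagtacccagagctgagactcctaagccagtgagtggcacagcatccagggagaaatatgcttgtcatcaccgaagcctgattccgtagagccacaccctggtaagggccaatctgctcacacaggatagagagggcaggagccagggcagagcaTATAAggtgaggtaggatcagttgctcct
S100a9: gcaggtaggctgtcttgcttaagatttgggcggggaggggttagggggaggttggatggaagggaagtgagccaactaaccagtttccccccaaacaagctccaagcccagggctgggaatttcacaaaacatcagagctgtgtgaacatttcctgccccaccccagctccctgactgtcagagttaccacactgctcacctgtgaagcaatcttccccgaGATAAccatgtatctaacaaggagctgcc
Hlf: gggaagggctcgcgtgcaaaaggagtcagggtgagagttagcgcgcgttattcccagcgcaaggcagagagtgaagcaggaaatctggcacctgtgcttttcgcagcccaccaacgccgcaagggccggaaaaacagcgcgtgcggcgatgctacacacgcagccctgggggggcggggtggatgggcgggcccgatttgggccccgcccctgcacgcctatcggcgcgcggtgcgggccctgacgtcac
The Hbb-bs window holds TATAA and GATAA, that of S100a9 holds GATAA only, and that of Hlf holds neither. RefSeq windows were found for 207 of the 275 list genes. TATAA was in the last 100 bases of 10.2% of all 32851 RefSeq windows, of 8 of 28 neutrophil windows (28.6%), of 5 of 23 erythroid windows (21.7%), 4 of them of the globin genes, and of 2 of 38 stem windows (5.26%). GATAA was in 22.6% of all windows, in 13 of 23 erythroid windows (56.5%), in 10 of 38 stem windows (26.3%) and in 5 of 28 neutrophil windows (17.9%). Some genes have several windows, and these matches are a description of letters, not of bound sites.

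Lymphoid genes were detected but low. Of 56 genes, 55 reached 1 CPM in all 4 libraries, against 44.1% of all genes with a count. The 56 genes had a median percentile of 68.3 ± 1.87 and a share of 0.327% ± 0.0534 of the gene counts. B lineage genes ranked above T and NK genes. The median percentile was 78.0 ± 5.76 for 15 B progenitor genes, 77.2 ± 3.72 for 14 mature B and plasma genes, 62.0 ± 1.95 for 15 T genes and 60.9 ± 1.04 for 12 NK genes, and B progenitor genes exceeded T genes in 4 of 4 libraries. Cd79b and Cd79a, which encode the signalling chains of the B cell receptor, averaged 60.2 ± 10.97 and 56.2 ± 8.75 CPM. Rag2, part of the recombinase of lymphoid precursors, was at 2.69, 9.70, 3.53 and 4.14 CPM, and Vpreb2 of the surrogate light chain was the only lymphoid gene that did not reach 1 CPM in every library, at 0.844, 1.49, 0.978 and 0.537 CPM. Immunoglobulin constant genes were the highest: Igkc was at 990, 267, 1740 and 1551 CPM and Ighm at 656, 732, 966 and 980 CPM. A gene model that overlaps Igkc holds nearly the same count, and one that overlaps Rag2 has 1064% of the count of Rag2. Igkc was lowest in replicate 3, while Rag2 was highest there. The T cell receptor genes Trbc1 and Trbc2 averaged 5.18 ± 1.43 and 5.53 ± 1.75 CPM. Nkg7, a granule gene of cytotoxic cells, was the highest of the NK list, at 39.8, 22.7, 56.8 and 49.4 CPM, and Eomes was at 4.30 ± 1.23 CPM.

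Markers of other marrow cells were measured in the same way. Gene models that overlap F13a1 and Ccr9 have 62.2% and 94.1% of the counts of these genes. For 15 monocyte and macrophage genes the median percentile was 89.2 ± 0.740, with Ccr2 at 361 ± 154 CPM and F13a1 at 378 ± 147 CPM. For 10 dendritic and MHC class II genes it was 94.5 ± 1.39, with Cd74 at 204 ± 39.2 CPM and Ccr9 at 221 ± 19.4 CPM, while Xcr1, of a dendritic cell subset, stayed below 1 CPM in all 4 libraries at 0.308 ± 0.143 CPM. For 11 eosinophil, basophil and mast genes it was 78.8 ± 7.68, and Prg2, the major basic protein of eosinophil granules, was at 696, 479, 690 and 640 CPM. The 16 megakaryocyte and platelet genes lay lower, at 64.3 ± 5.08, with Treml1 at 1.21 ± 0.895 CPM, and at a mean of 0.772 CPM without replicate 3. Of 15 stromal and endothelial genes, 7 reached 1 CPM in all 4 libraries, a share near the 44.1% of all genes with a count. The median percentile of the 15 was 51.2 ± 3.68. Pecam1, which blood cells also make, and the chemokine Cxcl12 were the highest of these per kb, with Pecam1 at 43.7 ± 5.98 CPM and Cxcl12 at 56.4, 116, 56.8 and 56.0 CPM. All 15 cell cycle genes reached 1 CPM in all 4 libraries, against 44.1% of all genes with a count. Their median percentile was 93.1 ± 1.66. Mki67, a marker of cycling cells, was at 962, 2393, 727 and 757 CPM, Pcna at 113 ± 40.1 CPM and Birc5 at 71.1 ± 22.4 CPM. For 10 broadly expressed genes the median percentile was 98.6 ± 0.253, with Actb at 5262 ± 2469 CPM.

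The order of the programmes by median percentile was neutrophil, erythroid, progenitor, lymphoid and stem, and each pair of programmes differed in 1 direction in all 4 libraries. The widest gap was between neutrophil and stem genes, with a difference of stem minus neutrophil genes of -46.4 ± 1.94 percentile points. The difference of stem minus lymphoid genes was -15.4 ± 2.17 points, and that of neutrophil minus erythroid genes 4.79 ± 2.79 points. The closest to its own spread was progenitor minus erythroid genes, at -6.15 ± 6.02 points. This order turned when overlapping genes were left out, with progenitor genes (5 left) at 96.7 and erythroid genes (23 left) at 95.9, a difference of 0.837 ± 2.51 points. It turned also when only genes whose overlapping gene has 10% or more of their count were left out, at 95.5 and 95.2. The order of these 2 programmes is therefore uncertain. By counts, the neutrophil list had 62.2 times as many as the stem list in replicate 1, 19.1 times in replicate 3, 64.2 times in replicate 4 and 60.7 times in replicate 5.

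Replicate 3 differed from the other mice by programme rather than evenly. It was below the other libraries in 31 of 32 neutrophil genes and above them in 28 of 28 erythroid genes, against 37.3% and 35.4% of all genes at 1 CPM or more. It was also above them in 14 of 15 B progenitor genes and 14 of 15 cell cycle genes. The same held for 13 of 16 megakaryocyte and platelet genes and 13 of 15 stromal and endothelial genes. Only 7 of the 15 stromal and endothelial genes reached 1 CPM in all 4 libraries, so the 35.4% is from an unlike set for them. The median log2 ratio of replicate 3 to the mean of the others, after adding 0.1 CPM, was -1.33 for neutrophil genes, 1.59 for erythroid genes, 1.07 for B progenitor genes and 1.69 for stromal and endothelial genes, against -0.03 for all genes at 1 CPM or more. Col1a2, a collagen of bone-forming cells and fibroblasts, was at 55.4 CPM in replicate 3 against 3.30 to 5.40 CPM in the others, and Bglap, osteocalcin, at 4.22 CPM against 0.211 to 0.468. Sparc, a matrix protein of bone, was at 29.1 CPM against 3.51 to 6.72. Without replicate 3, the neutrophil programme kept the highest median percentile, at 99.4, followed by the erythroid programme at 93.2, the progenitor programme at 90.002, the lymphoid programme at 68.4 and the stem programme at 52.8. The part of cell composition, RNA quality or library preparation in these differences was not tested.

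**Figure D4:**
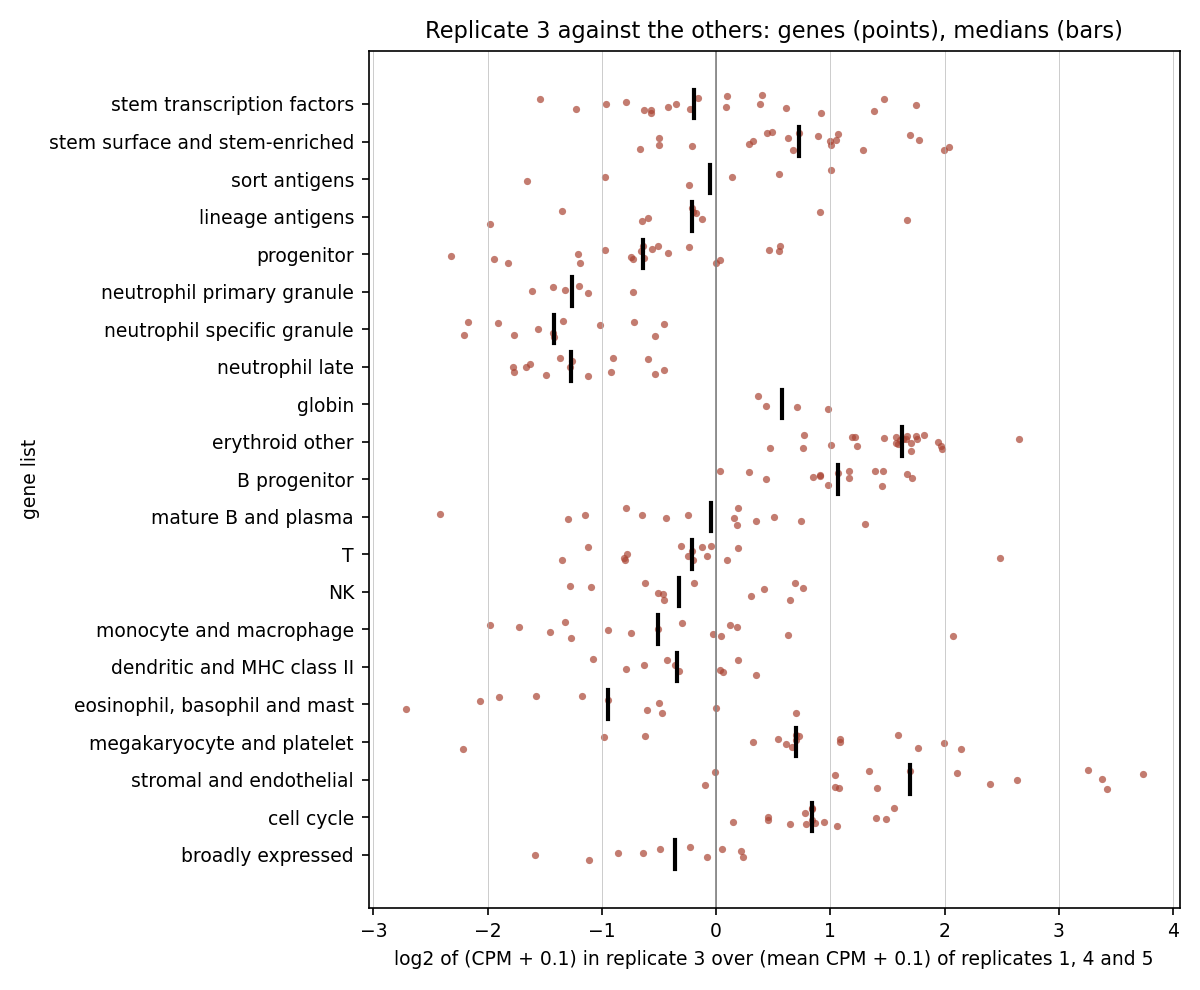
Log2 of CPM plus 0.1 in replicate 3 over the mean CPM plus 0.1 of replicates 1, 4 and 5, with 1 point for each gene and a bar at the list median. Neutrophil lists lie left of 0, and the erythroid, B progenitor, cell cycle and stromal lists lie right of it.

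The genes of several proteins that the study names, and Ociad2, were all measured in the floxed libraries. Ociad1 itself, which is intact here (GRCm38 chromosome 5), was at 41.6, 66.9, 36.7 and 31.3 CPM and ranked 3446 per kb, within the top 10% of genes. Its paralog Ociad2 was at 0.396, 7.07, 0.383 and 0.383 CPM, above 1 CPM only in replicate 3. Lamp1, of the lysosome membrane, was at 274, 173, 288 and 304 CPM, and Notch1 at 148, 93.3, 140 and 188 CPM. Rab5a, of early endosomes, averaged 37.3 ± 4.75 CPM, Trp53, which encodes p53, 41.1 ± 3.71 CPM, and Psmb7, a proteasome subunit, 21.2 ± 5.89 CPM. Trp53 and Rab5a varied little between mice, and Ociad2 varied most.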

How the data were processed

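RNA of sorted cells from 4 asrij floxed and 4 KO mice was sequenced by the authors, with 1 library for each mouse. Per the labels and the methods, the authors trimmed reads with Trim Galore and aligned them with Bowtie 2 to reference transcripts of GRCm38/mm10. They deposited a raw count for each of 138930 transcripts. The authors deposited whole-number counts in all 8 files, and 7 are tab-separated under a name for comma-separated files, so their unit was recorded as another unit. The counter, strand setting and tool versions are not given in the sources used here. No batch is named.

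Transcripts were matched to GENCODE M21 (138789 found). Each gene was counted by the transcript that holds the most reads, summed over all 8 libraries. The counts cover whole genomic spans with introns and both strands: in 1107 of 1107 pairs with a gene inside an intron of another, the outer gene had at least the inner gene's count. Overlapping genes therefore share counts. The stated alignment to reference transcripts does not account for counts over introns, and the sources used here do not resolve this. CPM used TMM factors of edgeR 4.0.16 (R 4.3.3) over 8 libraries. Percentiles rank CPM per kb of spliced length among 37266 genes. Genes with 0 counts are limited by a floor of 3 counts. The 95% Wilson intervals of the programme shares are at most 0.0108 percentage points wide to each side and cover counting error only. The edgeR dispersion was tested on simulated data. Pairs of libraries differed by more than sampling noise (chi-square per degree of freedom 17.0 to 313). Python 3.11.15 with numpy 2.4.6, pandas 2.3.3 and scipy 1.17.1 was used for the other steps. No p-value is given, because an exact two-sided sign-flip test over 4 libraries cannot go below 0.125.

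The libraries and the 22 gene lists were chosen with earlier results of these data known. Of 276 listed genes, 275 were found. The named genes are the 25 highest by CPM and the 10 highest by CPM per kb. They include the 3 highest and 3 lowest members of each list per kb and members that lie on both sides of 1 CPM. All sort antigens, lineage antigens and globins are among them, as are several proteins that the study names and Ociad2. The 5 most and 5 least variable genes at 10 CPM or more were added. The alternatives were other transcript choices, lengths, filters, scalings and gene sets, and leaving out each library. Leaving out genes whose overlapping gene has 10% or more of their count was added after the data had been seen, as were ratios of genes by genomic span. Some genes that meet these rules are not reported here. The KO contrast was not analysed here.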

Additional observations from a re-analysis of the deposited data

Results flagged for a closer look

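In each group of 4 libraries, a library far from the other 3 was marked when its gap to the nearest library was too large a part of the whole range (above Dixon's 95% critical value). Of 171 groups of values examined, 26 were marked. Chance marks about 1 in 20 groups, but these groups share the same 4 libraries and some genes were named for their wide spread, so the number marked is not a test. Replicate 3 was the distant library in 24 of the 26, on the high side in 20 and on the low side in 4, and replicate 1 in 2. The causes were not tested.

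Replicate 3 had a stem share of 0.156%, against 0.117% to 0.119% in the others, and a neutrophil share of 2.98%, against 7.08% to 7.66%. Both stem lists had their highest share in replicate 3. Stem transcription factors took 0.136% there, against 0.109% to 0.112% in the others. Stem surface and stem-enriched genes took 0.0206%, against 0.00687% to 0.00841%. Gene by gene, the higher level did not hold for most stem transcription factors. In CPM, replicate 3 was highest in 8 and lowest in 10 of these 20 genes. Of the 21 stem surface and stem-enriched genes, it was highest in 15 and lowest in 3. Among neutrophil and other myeloid genes it was low in Ltf, at 2214 CPM, in Prss34, a basophil protease, at 35.1 CPM, and in Il1b, at 18.0 CPM, and high in Mrc1, a macrophage receptor, at 39.8 CPM. Among erythroid genes it was high in Slc4a1, at 2546 CPM, Alas2, at 1159 CPM, Car2, at 1127 CPM, and Uros, at 82.2 CPM. Among cell cycle genes it was high in Mki67, at 2393 CPM, Cdk1, at 90.9 CPM, and Ccne1, at 56.2 CPM. Among stromal and endothelial genes it was high in Cxcl12, at 116 CPM, Col1a2, at 55.4 CPM, Sparc, at 29.1 CPM, Bglap, at 4.22 CPM, Col3a1, at 2.61 CPM, Kdr, at 2.50 CPM, Lum, at 1.76 CPM, and Bglap2, at 1.76 CPM. It was also high in Plppr1, at 118 CPM, in Nlgn1, at 33.8 CPM, and in Ociad2, at 7.07 CPM.

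Replicate 1 was low in Hba-a1, at 7132 CPM against 16096 to 17061 in the others, and high in Ptprc, at 730 CPM against 420 to 465.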

How the results depend on the processing

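The order of the programmes by median percentile was the same with each replicate left out, but progenitor and erythroid genes changed places with overlapping genes left out. Leaving out each replicate in turn gave shares of the gene counts of 0.118% to 0.131% for stem, 0.268% to 0.302% for progenitor, 5.79% to 7.35% for neutrophil, 4.69% to 6.59% for erythroid and 0.308% to 0.344% for lymphoid genes, and a coefficient of variation of 0.306 (without replicate 3) to 0.437. With overlapping genes left out, shares were 0.0822% for stem, 0.221% for progenitor, 11.98% for neutrophil and 11.4% for erythroid genes, and the genes holding 50% of the counts fell from a mean of 1082 to 329. Leaving out only genes whose overlapping gene has 10% or more of their count gave 9.01% for neutrophil and 8.41% for erythroid genes. Leaving globins out of the erythroid list gave 0.673%. Sums over transcripts gave 0.157% for stem and 0.232% for lymphoid genes.

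Median percentiles among genes that pass the filter on low counts were 23.5 for stem, 46.3 for lymphoid, 80.2 for progenitor, 90.7 for erythroid and 98.8 for neutrophil genes. Among protein-coding genes only they were 39.6 for stem and 57.1 for lymphoid genes. For stem genes the genomic span gave 49.3, no length scaling 62.6, sums 59.0, and leaving out overlapping genes 58.6, or 55.2 with the 10% limit. Leaving out overlapping genes gave 96.7 (95.5 with the 10% limit) for progenitor, 95.9 (95.2) for erythroid, 72.9 (70.3) for lymphoid and 99.6 for neutrophil genes, and neutrophil genes had 98.2 by span and 98.8 by sums. Without length scaling, neutrophil genes exceeded erythroid genes in 3 of 4 libraries. Per kb of genomic span, an alternative added after the data had been seen, the ratio of S100a9 to S100a8 fell from 1.64 to 0.601 and that of Elane to Mpo rose from 0.940 to 1.85. The mean Spearman's rho of 0.938 became 0.958 in filtered genes and 0.970 in protein-coding genes. Sums over transcripts moved 86 of 165 named genes by more than 1 SD. No paired analysis was possible because only floxed libraries were compared. Depth limits genes below about 1 CPM, which is 23.5 to 52.9 counts.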

Other observations

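Outside the programmes, the highest genes by CPM included models whose counts are shared. Gm20388, a gene model with a long genomic span on chromosome 8, averaged 3663 CPM and ranked 11 by CPM. Lrrc58 and Gm15725, a processed pseudogene inside it, averaged 1895 and 1842 CPM, and Arhgdib and Pde6h, which overlap on opposite strands, averaged 1447 and 1417 CPM. Pseudogenes together held 10.9% ± 1.75 of the gene counts and protein-coding genes 82.6% ± 1.77. The mitochondrial genome held 1.28% ± 0.425, highest in replicate 3 at 1.86%, and immunoglobulin genes 0.410% ± 0.159, lowest in replicate 3 at 0.187%.

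Among genes at 10 CPM or more, those with the largest spread between mice were Mir6236, Plppr1, Nlgn1, Ighg1 and Col1a2. Ighg1, an immunoglobulin heavy chain constant gene, was at 231, 3.88, 333 and 333 CPM in replicates 1, 3, 4 and 5, and Mir6236 at 37.3, 62.9, 1.11 and 1.26 CPM, so that replicates 1 and 3 stood together for Mir6236. Dnajc1, Ehd4, Aff2, Nmt1 and Anxa7 varied least, with Dnajc1 at 68.0, 65.9, 68.9 and 66.5 CPM.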
